A study of Mus musculus with 2 samples.

Results

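The 6 genes described here are the CC chemokines *Ccl2*, *Ccl7*, *Ccl8* and *Ccl12*, the chemokine receptor *Ccr2* and the atypical chemokine receptor *Ackr1*, taken by symbol from the 31053 genes of the count tables. They were measured by single-cell RNA sequencing in CD45+ leukocytes sorted from mouse melanomas 4 days after implantation, with 1 library per group, each made from pooled tumors. Both groups were C57BL/6 hosts aged 8 weeks that carried *Ptgs*-deficient melanoma cells according to the series design and the sample titles, whereas the genotype entry of both samples reads wild-type tumor cells, so the loss of the cyclooxygenase genes rests on the design text. No antibody is listed for the control hosts. The methods of the study name control IgG for depletion experiments, and whether these hosts received it is not stated. NK cell-depleted hosts received 200 µg of anti-NK1.1 (clone PK136) and 30 µg of anti-asialo GM1 on days 0 and 2, and the comparison asks what the leukocytes of these tumors express when NK cells are absent. Each channel was loaded with 16000 cells, to which parental *Braf*-mutant melanoma cells had been added in both groups.

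CCR2 is the receptor that lets classical monocytes leave the bone marrow and enter inflamed tissue, and CCL2 and CCL7 are its main ligands in the mouse. CCL12 is a further mouse ligand of CCR2, and mouse CCL8 signals mostly through another receptor, CCR8. ACKR1 binds many chemokines without G protein signaling and is known from venular endothelium and erythroid cells. In tumors these chemokines are made by macrophages, monocytes, stromal cells and tumor cells, so the cell type that carries the transcripts is part of what is to be measured.

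The 4 ligand genes lie on the plus strand of chromosome 11 within 81.2 kb (GRCm38, positions 82035571 to 82116799 in the GENCODE annotation), in the order *Ccl2*, *Ccl7*, *Ccl12*, *Ccl8*. *Ccr2* lies on chromosome 9 at 124101950 to 124113557 on the plus strand, and *Ackr1* on chromosome 1 at 173331886 to 173333750 on the minus strand. All 6 are protein-coding. No word of 25 bases was shared between the annotated transcripts of any pair of the 4 ligands, so their reads can be assigned apart over that length.

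The sequence before the start sites was planned for the 4 ligands. RefSeq promoter sequences (build GRCm38.p6) were at hand for 2 of them, *Ccl8* and *Ccl12*, and are shown for that reason. These 2 were also the ligands with more transcripts in the control library in every cluster with enough counts. The 250 bases before each start are printed on the strand of the gene, with the words of 8 bases held by both windows in capitals. The *Ccl8* window is chr11:82114935-82115184 and the *Ccl12* window is chr11:82101595-82101844.
Ccl8: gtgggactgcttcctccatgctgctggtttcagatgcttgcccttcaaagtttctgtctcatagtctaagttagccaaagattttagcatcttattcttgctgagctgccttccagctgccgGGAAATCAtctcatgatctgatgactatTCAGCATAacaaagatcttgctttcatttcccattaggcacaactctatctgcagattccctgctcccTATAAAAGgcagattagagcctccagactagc
Ccl12: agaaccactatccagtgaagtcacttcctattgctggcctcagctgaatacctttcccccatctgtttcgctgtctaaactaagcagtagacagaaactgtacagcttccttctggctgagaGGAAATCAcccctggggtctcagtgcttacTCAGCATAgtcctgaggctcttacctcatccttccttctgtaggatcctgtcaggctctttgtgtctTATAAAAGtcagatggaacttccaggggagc
The windows shared 3 words of 8 bases, in the same order. GGAAATCA began 128 bases before the start in both genes. TCAGCATA began 100 bases before the start of *Ccl8* and 98 before that of *Ccl12*. TATAAAAG, which holds the TATA box letters TATAAA, began 32 and 31 bases before the start. TATAAA was present on either strand in 13.6% of 32851 promoter windows of 300 bases. The windows of 300 bases, which run 50 bases past the start, were also searched on both strands for the AP-1 site (TGANTCA), for the interferon-stimulated response element (GAAA, any pair of bases, GAAA) and for the NF-kB site by name. None of these 3 had a match in either window, against 7.81%, 3.44% and 8.46% of all windows. The shared words and the TATA letters were chosen after the sequences had been read, and no match says only that these letters are not in this window. *Ccl2* and *Ccl7* had no window to compare, and how often a pair of promoters shares such words was not counted.

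Of 11651 called barcodes, 9798 cells passed the limits of the study (500 to 15000 UMIs, 200 to 4000 genes, at most 10% mitochondrial UMIs). The control library kept 5292 cells with a median of 4170 UMIs, and the depleted library 4506 cells with a median of 4893. A UMI is 1 counted transcript molecule, and levels are given as UMIs per 1000000 UMIs (CPM) of the cells named. Clustering without the chemokine, chemokine receptor and interferon response genes gave 19 clusters, 10 of which were monocyte/macrophage-like and held 6716 cells, 66.4% of control cells and 71.1% of depleted cells. The libraries shared 5 barcodes among the filtered cells. With 1 library per group there is no replicate and no test of the treatment. Intervals are exact 95% intervals that cover counting error only. Those of levels and ratios treat each UMI as a separate draw and leave out the spread between cells. They are therefore too narrow where few cells hold most UMIs. A difference beyond counting error is one whose interval leaves out a ratio of 1.

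The monocyte/macrophage-like label was checked on *Csf1r*, the receptor of the macrophage growth factor, among other markers. *C1qa* was in 4.33% of control and 4.13% of depleted *Ace*/*Chil3* cells, and in 92.1% and 86.1% of *Lyve1*/*Gas6* cells. *Adgre1* was in 28.6% and 39.0% of the former, and in 94.8% and 91.2% of the latter. These markers thus did not hold evenly over the class. *Csf1r* was found in 80.9% to 96.2% of the cells of 7 clusters, and in 47.2% to 57.5% in those led by *Gpnmb* and *Dck*. In the cluster led by *Retnla* and *Lyz1* it was found in 29.6% of control and 25.3% of depleted cells. That cluster is among the shallowest with a median of 1839 UMIs. Summed levels of markers for other cells a tumor could hold, taken over all filtered cells, differed between the libraries. The summed level of 6 erythroid markers was 6.33 CPM in control and 121 CPM in the depleted library. The summed level of 11 melanoma markers was 51.1 and 114 CPM, that of 10 endothelial markers 45.1 and 29.0 CPM with *Cldn5* and *Emcn* at 0 in both, and that of 7 fibroblast markers 5.80 and 4.69 CPM. *Pecam1*, an endothelial marker on that list, had 387 and 194 UMIs in monocyte/macrophage-like cells, where the list had 1119 and 673 over all cells. Melanoma cells had been added to both channels. The sums therefore do not measure how many such cells the tumors held. The part of such cells in the results was not tested.

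*Ackr1* was at the edge of detection. It had 3 UMIs in the control library, 1 in a cDC2-like cell and 2 in migratory DC-like cells, and none in the depleted library, where the exact Poisson interval of a count of 0 reaches 0.159 CPM. No fold is given at these counts.

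Among the sorted cells, transcripts of the 4 ligands were found almost entirely in monocyte/macrophage-like cells. In the control and depleted libraries these cells held 98.6% and 99.0% of *Ccl2* UMIs, 98.9% and 99.0% of *Ccl7*, 99.7% and 99.7% of *Ccl8*, and 99.7% and 99.9% of *Ccl12*. Sorting for CD45 leaves out most stromal and tumor cells, so these shares do not describe the whole tumor. Outside the class the largest source was the cDC2-like cluster, with 158 and 225 *Ccl2* UMIs, or 81.7 and 98.5 CPM. No cluster was called cDC1-like. The cDC1 marker *Clec9a* was among the leading genes of the matching cluster at other resolutions, so the cDC2-like cluster may also hold cDC1. T-like cells, taken as background, had 12 and 10 *Ccl2* UMIs, or 46.3 and 43.1 CPM, and 3.78% and 8.85% of them held a UMI of it, at median depths of 1265 and 2029 UMIs. In monocyte/macrophage-like cells the share was 60.0% and 63.5%, at median depths of 5099 and 5493 UMIs. The T-like level was near the 47.2 and 38.0 CPM of neutrophil-like cells. The 54 and 70 melanoma-like cells had 1 and 2 *Ccl2* UMIs, or 6.70 and 6.55 CPM. The upper limits leave out most melanoma-like cells. Without these limits, 168 and 314 such cells had 77 and 136 *Ccl2* UMIs (17.6 and 16.9 CPM) and 86 and 67 *Ccl7* UMIs. Parental melanoma cells had been added to both channels, so these values do not describe the tumors' own cells. The low levels outside the class were taken as background, though they were not even over cell types. In control T-like cells the 12 *Ccl2* UMIs lay in 7 cells, with up to 4 in 1 cell. Whether part of them is expression was not tested. A cluster that stayed unnamed, led by *Gm5483* and *Hcar2*, had 29 and 14 *Ccl2* UMIs, or 364 and 279 CPM.

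*Ccr2* reached further. Monocyte/macrophage-like cells held 86.9% of its UMIs in control and 91.2% in the depleted library, cDC2-like cells 6.58% and 7.77%, and the cluster led by *Gzma* and *Il2rb* 5.83% in control. *Gzma* encodes granzyme A, a protease of cytotoxic granules, and this cluster held 652 control and 112 depleted cells. In cells with at least 3 NK cell markers and no *Cd3* UMI, of which there were 521 in control and none in the depleted library, *Ccr2* stood at 1110.2 CPM (1053 to 1170.0) and was found in 71.4% of cells. In cells with a *Cd3* UMI, the T cell receptor complex, *Ccr2* was 803 CPM (731 to 879) in 239 control cells and 376 CPM (321 to 438) in 169 depleted cells. The T-like cluster had 525 CPM in control, where 40% of its cells held at least 3 NK cell markers, and 73.2 CPM in the depleted library, where none did. Within that cluster, 79 control cells with a *Cd3* UMI had 252 CPM (174 to 354) and 95 depleted cells with one had 59.7 CPM (30.9 to 104). At least 3 NK cell markers were held by 2.53% of these control cells and by none of these depleted cells. The 521 control cells with NK cell markers thus carried *Ccr2* at a level within the range of the monocyte/macrophage-like clusters, while the 4 ligands together gave 58 UMIs in them.

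The order of the clusters was not the same for the ligands and the receptor. For *Ccl2* the cluster led by *Lyve1* and *Gas6* was highest in both libraries, with 3522 UMIs (1727 CPM) in control and 9716 UMIs (2581 CPM) in the depleted library. *Lyve1* is a hyaluronan receptor known from tissue-resident macrophages and *Gas6* a bridging ligand for uptake of dying cells. In control this cluster was followed by the one led by *Ly6c2* and *Vcan* at 1470 CPM and the one led by *Dck* and *Gas6* at 1436 CPM, which did not differ beyond counting error. The lowest was the cluster led by *Ace* and *Chil3*, with 318 and 427 CPM. *Ly6c2* marks classical monocytes, and the *Ace*/*Chil3* cluster carried it as well, at 1822 and 1549 CPM.

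For *Ccl7* the order was the same at the top and steeper. The *Lyve1*/*Gas6* cluster had 5402 UMIs (2649 CPM) in control and 8857 UMIs (2352 CPM) in the depleted library, and the *Ace*/*Chil3* cluster 83.9 and 63.1 CPM. The next 3 in control, led by *Dck*/*Gas6* (1383 CPM), *Ly6c2*/*Vcan* (1282 CPM) and *Ms4a7*/*Itga9* (1280 CPM), did not differ beyond counting error from one to the next.

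*Ccl8* was a transcript of few cells. The *Lyve1*/*Gas6* cluster held 80.3% of its UMIs in control and 86.9% in the depleted library. It stood at 1475 CPM there in control, against 272 CPM in the *Dck*/*Gas6* cluster, 104 CPM in the *Ms4a7*/*Itga9* cluster and 10.7 CPM in the *Ly6c2*/*Vcan* cluster. In the depleted library the same 4 clusters had 248, 104, 21.5 and 3.61 CPM. Over all cells, the 1% of cells with the most *Ccl8* held 81.8% of its UMIs in control and 82.9% in the depleted library. The same measure was 14.3% and 14.1% for *Ccl2*, 21.2% and 18.5% for *Ccl7*, 43.5% and 46.0% for *Ccl12*, and 5.54% and 4.82% for *Ccr2*.

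*Ccl12* was spread over the *Lyve1*/*Gas6* (280 CPM), *Dck*/*Gas6* (237 CPM), *Ly6c2*/*Vcan* (231 CPM) and *Ms4a7*/*Itga9* (201 CPM) clusters in control. Neighbours among the first 3 did not differ beyond counting error. In the depleted library the *Ms4a7*/*Itga9* cluster (135 CPM), the *Lyve1*/*Gas6* cluster (126 CPM) and the *Dck*/*Gas6* cluster (119 CPM) were not separable, and the *Ly6c2*/*Vcan* cluster followed at 71.2 CPM.

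*Ccr2* was highest in the *Ly6c2*/*Vcan* cluster, with 5281 UMIs (2559 CPM) in control and 12683 UMIs (2859 CPM) in the depleted library. A UMI of it was found in 99.4% and 99.9% of those cells. The lowest levels among the monocyte/macrophage-like clusters were in the one led by *Gpnmb* and *Mmp13*, a pair of genes known from lysosome-rich and matrix-degrading macrophages, with 419 and 309 CPM. The *Lyve1*/*Gas6* cluster, the highest for 3 of the 4 ligands, had 1656 and 1816 CPM of the receptor.

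**Figure D1:**
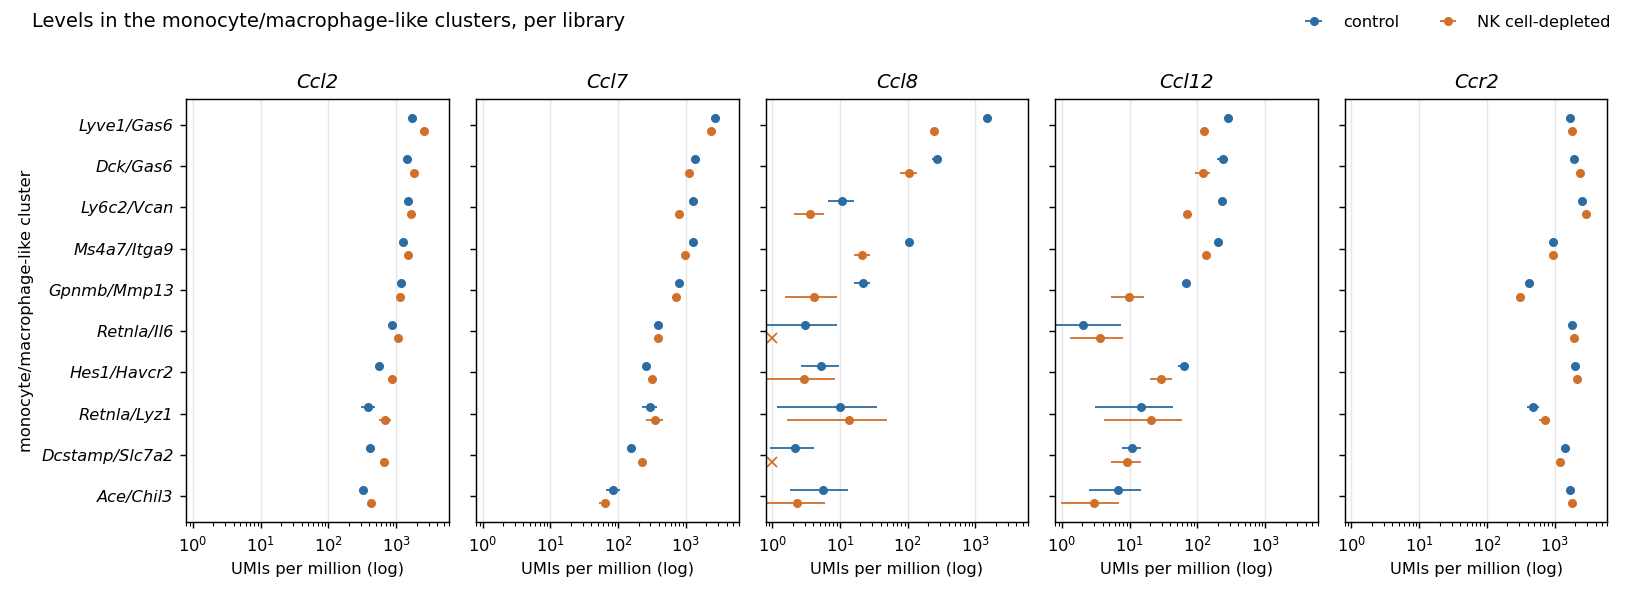
Level of each gene (x axis, CPM on a log scale, with exact 95% Poisson intervals) in the 10 monocyte/macrophage-like clusters (y axis, named by their leading genes), in the control and NK cell-depleted libraries; a cross at the left edge marks a count of 0. The *Lyve1*/*Gas6* cluster is highest for *Ccl2*, *Ccl7* and *Ccl8* in both libraries, and *Ccr2* is lowest in the *Gpnmb*/*Mmp13* cluster.

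Over all monocyte/macrophage-like cells, *Ccl2* was lower in control, and *Ccl8* and *Ccl12* were higher. *Ccl2* had 20007 UMIs (1012 CPM) in control and 27997 UMIs (1472 CPM) in the depleted library, a control level of 0.688-fold (0.676 to 0.701). *Ccl7* had 18399 UMIs (931 CPM) and 17911 UMIs (941 CPM), 0.989-fold (0.969 to 1.01). The *Ccl7* levels did not differ beyond counting error.

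*Ccl8* had 3731 UMIs (189 CPM) in control and 1070 UMIs (56.2 CPM) in the depleted library, so that it was 3.36-fold higher in control (3.14 to 3.60). *Ccl12* had 2461 UMIs (125 CPM) and 1268 UMIs (66.6 CPM), 1.87-fold higher in control (1.75 to 2.00). *Ccr2* had 28039 and 34359 UMIs, a log2 ratio of −0.35. Of the 5 genes with enough counts, *Ccl8* and *Ccl12* were higher and *Ccl2* and *Ccr2* lower in control past a log2 ratio of 0.32 in size, where 12.2% of 11885 genes with at least 20 UMIs were higher and 11.2% lower. By size of the log2 ratio *Ccl8* ranked 66th from the highest of these genes and *Ccl12* 442nd, while *Ccl2* ranked 559th and *Ccr2* 1472nd from the lowest.

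The mix of clusters differed between the libraries, which bears on any sum over the class. The *Lyve1*/*Gas6* cluster was 8.26% of monocyte/macrophage-like cells in control and 14.6% in the depleted library, and the *Ly6c2*/*Vcan* cluster 9.82% and 22.9%. The *Gpnmb*/*Mmp13* cluster was 20.6% and 11.7%. The ratios were therefore also taken within clusters, for those with at least 20 UMIs of the gene over both libraries.

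Within clusters *Ccl2* was lower in control in 9 of 10 and beyond counting error in all 9. The sizes ran from 0.554-fold in the *Retnla*/*Lyz1* cluster to 0.903-fold in the *Ly6c2*/*Vcan* cluster. The exception was the *Gpnmb*/*Mmp13* cluster, with 1165 CPM in control and 1124 CPM in the depleted library (1.04-fold, 0.976 to 1.10). The share of *Ly6c2*/*Vcan* cells with a *Ccl2* UMI was 77.4% and 76.1%, so that the libraries differed there by a small amount in level and less in the share of cells.

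*Ccl8* was higher in control in all 5 clusters with enough UMIs, and beyond counting error in all 5. It was 5.96-fold higher in the *Lyve1*/*Gas6* cluster (5.53 to 6.42), 4.84-fold in the *Ms4a7*/*Itga9* cluster (3.65 to 6.54) and 2.62-fold in the *Dck*/*Gas6* cluster (1.89 to 3.68). In the *Lyve1*/*Gas6* cluster 52 control cells held 92.5% of these UMIs and 29 depleted cells held 82.2%. The interval leaves out this spread between cells. There were 290 control and 467 depleted cells in the *Lyve1*/*Gas6* cluster, and when the clusters were weighted equally the log2 ratio of *Ccl8* over the class was 2.26 in place of 1.75.

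*Ccl12* was higher in control in all 7 clusters with enough UMIs, 6 of them beyond counting error. In the *Ly6c2*/*Vcan* cluster it had 476 and 316 UMIs, or 231 and 71.2 CPM, 3.24-fold higher in control (2.80 to 3.74). The largest ratio, 6.98-fold (4.05 to 13), was in the *Gpnmb*/*Mmp13* cluster and rests on 180 and 14 UMIs, of which 1 control cell held 83. Without that cell it was 3.77-fold (2.14 to 7.15). The cluster within counting error was the one led by *Dcstamp* and *Slc7a2* (40 and 17 UMIs).

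Among 8723 genes with at least 5 such clusters, 5.25% were higher in control in every one of them, as *Ccl8* and *Ccl12* were, and 6.12% were lower in every one. These genes could have up to 10 such clusters, while *Ccl8* had 5 and *Ccl12* had 7. The same direction throughout is easier to reach over fewer clusters, and a share matched for their number was not taken. *Ccl2*, *Ccl7* and *Ccr2* were in neither set.

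*Ccl7* went both ways. It was higher in control in 6 clusters and lower in 4, beyond counting error in 5 and 2 of them. In the *Ly6c2*/*Vcan* cluster it had 1282 CPM in control and 780 CPM in the depleted library (1.64-fold, 1.56 to 1.73). In the *Dcstamp*/*Slc7a2* cluster it had 157 and 224 CPM (0.703-fold, 0.618 to 0.799).

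*Ccr2* was lower in control in 8 clusters, 7 of them beyond counting error, by small amounts. In the *Ly6c2*/*Vcan* cluster the ratio was 0.895-fold (0.867 to 0.924) and in the *Lyve1*/*Gas6* cluster 0.912-fold (0.875 to 0.95). In the *Ms4a7*/*Itga9* cluster it was 949 and 952 CPM. The *Gpnmb*/*Mmp13* cluster (1.36-fold, 1.22 to 1.52) and the *Dcstamp*/*Slc7a2* cluster (1.19-fold, 1.14 to 1.26) were higher in control. With the clusters weighted equally the log2 ratio of *Ccr2* over the class was −0.11 in place of −0.35.

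**Figure D2:**
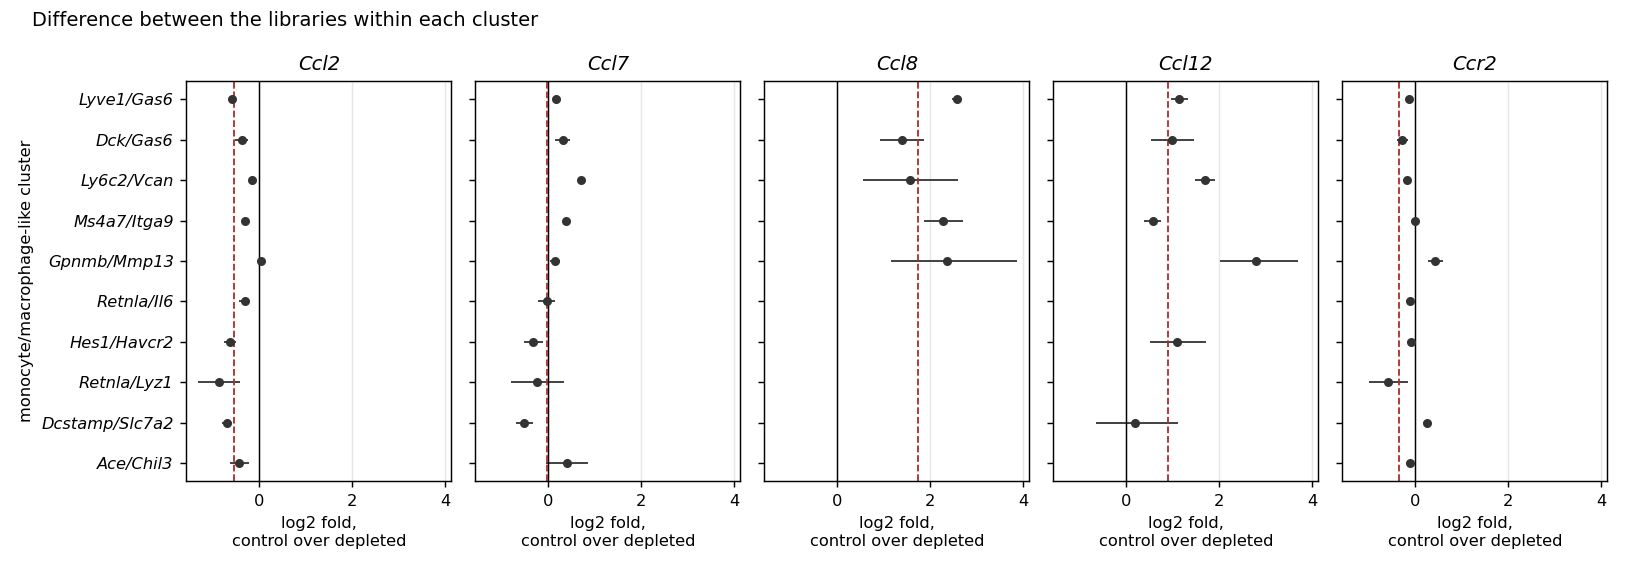
Log2 fold of control over NK cell-depleted (x axis, with exact 95% intervals) in each monocyte/macrophage-like cluster (y axis) with at least 20 UMIs of the gene; the dashed red line is the ratio over the whole class. *Ccl8* lies above 0 in 5 of 5 clusters, *Ccl12* in 7 of 7 and *Ccl2* below 0 in 9 of 10, while *Ccl7* and *Ccr2* lie on both sides.

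The makeup of the ligand transcripts differed accordingly. In control monocyte/macrophage-like cells *Ccl2* made up 44.9% of the UMIs of the 4 ligands, *Ccl7* 41.3%, *Ccl8* 8.37% and *Ccl12* 5.52%. In the depleted library the shares were 58.0%, 37.1%, 2.22% and 2.63%. The number of *Ccl7* UMIs per *Ccl2* UMI was 0.92 and 0.64 in the class. It was higher in control in each of the 10 clusters, from 1.53 against 0.912 in the *Lyve1*/*Gas6* cluster to 0.263 against 0.148 in the *Ace*/*Chil3* cluster, and beyond counting error in 7 of them. The 3 clusters within counting error were *Gpnmb*/*Mmp13* (0.678 and 0.629), *Dcstamp*/*Slc7a2* (0.379 and 0.334) and *Retnla*/*Lyz1* (0.769 and 0.50). In neutrophil-like cells, at background level, it was 0.700 and 0.696, and in cDC2-like cells 0.582 and 0.600. Other cells with low levels were not as even. T-like cells had 14 *Ccl7* and 12 *Ccl2* UMIs in control, and 5 and 10 in the depleted library. The cluster led by *Gzma* and *Il2rb* had 62 and 60 in control, and 5 and 9 in the depleted library. The part of background in these numbers was not tested.

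**Figure D3:**
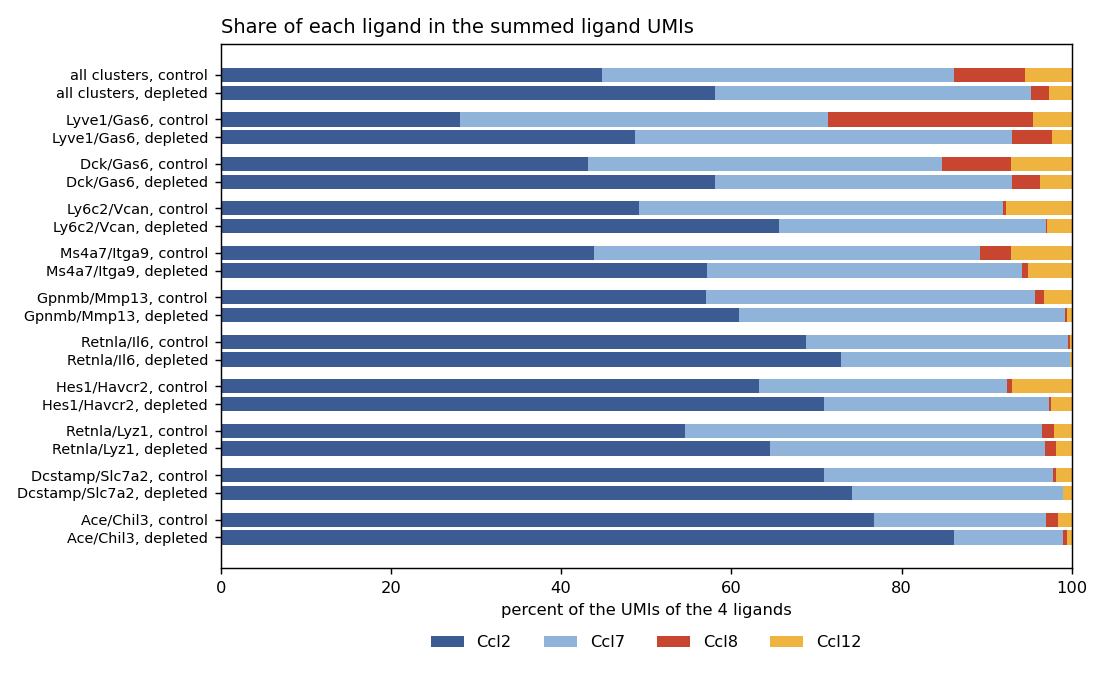
Percent of the summed UMIs of *Ccl2*, *Ccl7*, *Ccl8* and *Ccl12* (x axis) that came from each ligand, in all monocyte/macrophage-like clusters together and in each cluster (y axis), control above NK cell-depleted. *Ccl2* takes the smaller share in control throughout, with overlapping exact intervals in the *Dcstamp*/*Slc7a2*, *Retnla*/*Il6* and *Retnla*/*Lyz1* clusters, and *Ccl8* takes 24.1% of the ligand UMIs in control and 4.66% in depleted cells of the *Lyve1*/*Gas6* cluster.

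Since it held most *Ccl8*, the *Lyve1*/*Gas6* cluster was then followed cell by cell. In control 120 of 290 cells had a *Ccl8* UMI (41.4%) and in the depleted library 88 of 467 (18.8%). With every cell thinned to 2000 UMIs the shares were 32.8% (27.4 to 38.5) and 12.2% (9.38 to 15.5). None of the T-like cells had a *Ccl8* UMI, 0 of 185 in control and 0 of 113 in the depleted library, which allows a share of up to 1.97% and 3.21% by the exact binomial interval. Only 26 and 58 T-like cells were deep enough to be thinned, and with none of them holding a *Ccl8* UMI the limit beside the thinned shares is 13.2% and 6.16%. Cells with at least 10 *Ccl8* UMIs numbered 52 in control and 29 in the depleted library and held 92.5% and 82.2% of the *Ccl8* UMIs of the cluster. The 11 highest control cells and the 10 highest depleted cells held 50% or more of them.

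A UMI of *Lyve1* itself was found in 45 control cells (15.5%) and 80 depleted cells (17.1%) of this cluster. Among cells with it, *Ccl8* was 2.71-fold higher in control (2.44 to 3.02), and 64.4% and 56.2% of them had a *Ccl8* UMI. Among the 245 and 387 cells without it, *Ccl8* was 12.2-fold higher in control (10.9 to 13.8), and 37.1% and 11.1% had a *Ccl8* UMI. *Ccl2* in the same groups of cells was 0.626-fold and 0.688-fold.

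Cells of this cluster were also grouped by their own *Ccl8* UMIs, as a description of which other genes went with it. Control cells with no *Ccl8* UMI had 1951 CPM of *Ccr2* (1869 to 2034), and those with at least 10 had 1163 CPM (1066 to 1267). In the depleted library the same groups had 1985 CPM (1935 to 2037) and 651 CPM (560 to 752). The receptor was thus lower in the cells richest in *Ccl8* in both libraries, and lowest in the depleted one.

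*Ly6c2*, the classical monocyte marker, differed between the libraries in the cells with at least 10 *Ccl8* UMIs. It stood at 443 CPM (384 to 509) in control and 120 CPM (83.3 to 168) in the depleted library, and was found in 55.8% and 17.2% of these cells. *Lyve1* showed the reverse, with 200 CPM (161 to 245) and 506 CPM (426 to 596). *Folr2*, a folate receptor known from resident macrophages, had 808 and 1248 CPM. *Ccl12* in these cells was 463 CPM in control and 110 CPM in the depleted library, while *Ccl2* was 1572 and 4406 CPM. The cells richest in *Ccl8* thus differed between the libraries in the other ligands and in monocyte and resident genes, within 1 cluster; they were also deeper than the rest, with median depths of 8490.5 and 10038 UMIs against 5873 and 7469 in cells without *Ccl8*.

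**Figure D4:**
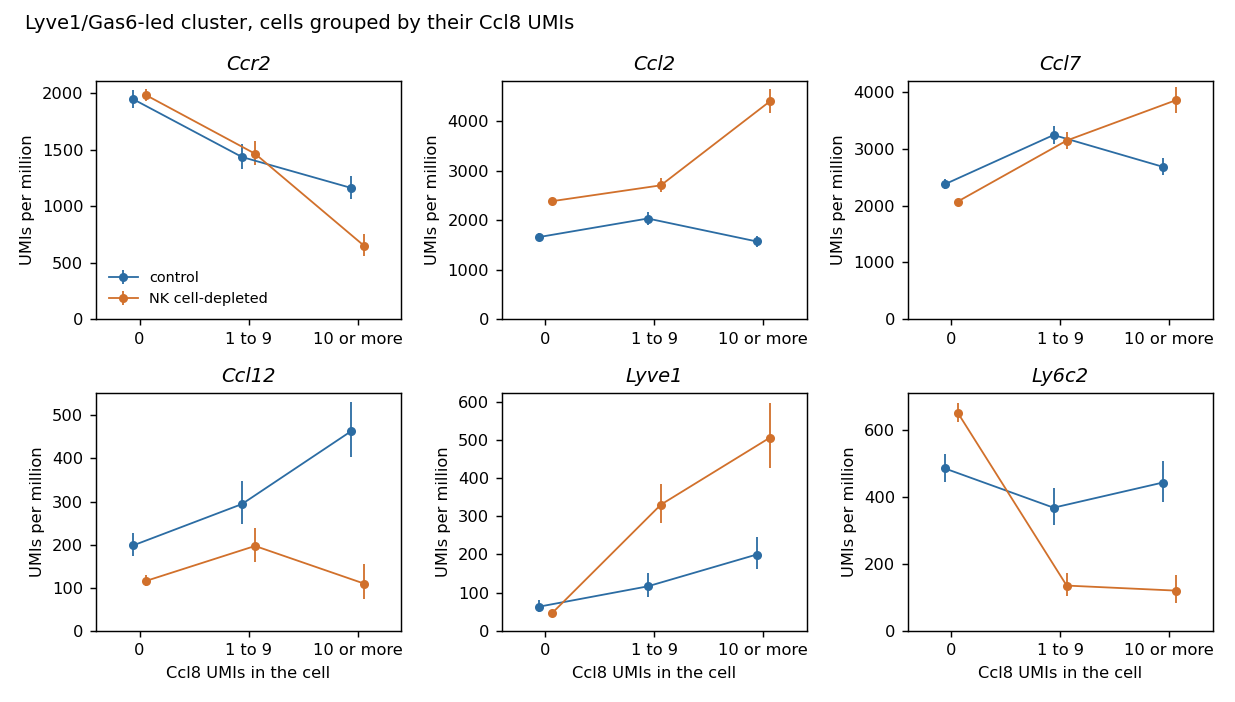
Level of 6 genes (y axes, CPM with exact 95% Poisson intervals) in cells of the *Lyve1*/*Gas6* cluster grouped by their own *Ccl8* UMIs (x axis; 170, 68 and 52 control cells and 379, 59 and 29 depleted cells). *Ccr2* falls from left to right in both libraries, and *Ly6c2* in the depleted library.

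The ligands were often detected in the same cells. In monocyte/macrophage-like cells thinned to 2000 UMIs, *Ccl7* was found in 57.9% of control cells with *Ccl2* and 13.7% of those without, and in 56.7% and 11.3% in the depleted library. *Ccl2* was found in 77.6% of control cells with *Ccl12* and 45.5% of those without. Clusters differ in both genes, and within the *Lyve1*/*Gas6* cluster *Ccl7* was found in 82.2% and 50% of control cells with and without *Ccl2*.

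*Ccr2* went with the ligands less. It was found in 76.7% and 75.1% of control cells with and without *Ccl2*, and in 84.1% and 81.5% in the depleted library. With *Ccl12* the shares were 85.1% and 74.8% in control. With *Ccl8* they were 77.9% and 75.8% in control, and 61.3% (49.4 to 72.4) and 83.5% (82.1 to 84.8) in the depleted library. Within the *Lyve1*/*Gas6* cluster *Ccr2* was found in 81.1% of control cells with *Ccl8* and 93.8% of those without, and in 54.4% and 92% in the depleted library. Most cells that carried a ligand therefore also carried the receptor transcript, with the depleted cells that held a *Ccl8* UMI at the low end.

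Genes with the most similar pattern were taken by Pearson's correlation of log2 levels over 34 profiles, as a description. The profiles were 17 clusters of each library with at least 50 cells there, not all the same in both. They share libraries and depth. Of 9522 genes, *Ccl7* was closest to *Ccl2* (0.955), followed by *F13a1* (0.947), the A chain of coagulation factor XIII and a gene of monocyte-derived macrophages. *Ccl8* was closest to *Gas6* (0.921) and *Slco2b1* (0.911), an organic anion transporter. *Ccl12* was closest to *Nxpe5* (0.931), and *Siglec1* (0.919), a sialic acid receptor of macrophages, was among its first 5. *Ccr2* was closest to *Pycard* (0.925), the adaptor of inflammasomes. *Ccr2* and *Ccl8* were the least alike among these genes (0.346).

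Other genes of the system were counted in monocyte/macrophage-like cells by the same threshold of 0.32 in log2 ratio. The ratios of these single genes are over the whole class, whose mix of clusters differed between the libraries. They were not taken within clusters. Of 9 other CC chemokines with at least 20 UMIs, 3 were higher and 3 lower in control, beside 12.2% higher and 11.2% lower over all genes, with a median log2 ratio of 0.00, against −0.01 over all genes. *Ccl5*, a chemokine made in quantity by NK and T cells, had 823 and 115 UMIs (6.89-fold higher in control, 5.66 to 8.45). *Gzma*, a granzyme of NK and T cells, was between 4.92 and 49.1 CPM in these clusters of the control library and at 0 UMIs in each of them in the depleted library, and its part in the *Ccl5* ratio was not tested. *Ccl17* (2.26-fold) and *Ccl22* (1.78-fold), ligands of CCR4, were higher as well. *Ccl24*, an eosinophil attractant, was 0.494-fold, *Ccl6* 0.744-fold and *Ccl4* 0.764-fold. Of 8 other chemokine receptors 1 was higher and none lower, with a median of 0.02.

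Of 16 genes of monocyte adhesion and transit, 3 were higher and 6 lower in control, with a median log2 ratio of −0.12, against the same 12.2% and 11.2% over all genes. *Pecam1*, a junction protein used in diapedesis, was 1.92-fold higher, and *F11r* and *S1pr1* were 1.31-fold and 1.30-fold higher. *Cd177* was 0.413-fold, and *Itgal*, the alpha chain of the integrin LFA-1, was 0.653-fold. *Cd177* was among the leading genes of the *Ly6c2*/*Vcan* and *Ace*/*Chil3* clusters, which made up more of the class in the depleted library. *F11r* was among those of the *Hes1*/*Havcr2* cluster, which made up less of it. The part of this mix in the ratios was not tested. Of 19 genes of CCR2 signaling, 1 was higher and 2 were lower, shares no larger than those over all genes. *Rgs1*, which shortens G protein signals, was 1.34-fold higher, and *Rgs18* and the receptor kinase *Grk2* were 0.662-fold and 0.664-fold.

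Interferon response genes were set beside the members because several chemokines are interferon targets in macrophages. Of 90 such genes over the class, 23 were higher and 9 lower in control, where 12.2% of all genes were higher and 11.2% lower, with a median log2 ratio of 0.03. *Iigp1* (3.74-fold), *AW112010* (2.56-fold) and *Gbp8* (2.54-fold) were the 3 highest in control by this ratio, and *Ms4a6b* was 0.628-fold. Within clusters the median of the list was above 0 in each of the 10, from 0.18 in the *Dck*/*Gas6* cluster to 1.03 in the *Gpnmb*/*Mmp13* cluster. The *Gpnmb*/*Mmp13* cluster was also the one with the largest *Ccl12* ratio and the one where *Ccl2* did not differ. Over the 10 clusters no relation between the list and a member was tested.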

How the data were processed

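CD45+ cells of 1 control and 1 NK cell-depleted library were profiled with droplet-based 3′ end sequencing. The authors deposited raw UMI counts per gene and barcode, made with Cell Ranger (version 3.0.2 in the file header) against mm10; read assignment happened there, and a gene's UMIs come from its 3′ end. A table of normalized values was not used here. The authors' limits on UMIs, genes and mitochondrial share were applied to the counts. Cells were then clustered (scanpy 1.11.5, 2000 variable genes, 15 principal components, 20 neighbours, leidenalg 0.10.2 at resolution 1.0) with 164 chemokine, receptor and interferon response genes left out, and clusters were called X-like from marker lists. UMIs were summed per cluster and library, and ratios carry exact conditional binomial intervals, levels exact Poisson intervals and shares exact binomial ones (scipy 1.17.1). Log2 ratios add 0.5 UMI to each sum. Interval code was tested on simulated counts that had no spread between cells. Doublets were kept in the values given. Scrublet called 0.775% and 0.688% of cells, and these were removed, together with cells holding at least 3 markers of other classes, in 1 alternative. A gene was counted as higher or lower past a log2 ratio of 0.32 in size, with at least 20 UMIs over both libraries.

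With 1 library of pooled tumors per group, no test between groups was possible, and animals and library cannot be told apart from the treatment. Depth was 24810009 UMIs in control and 23245982 in the depleted library over the filtered cells. Named genes outside the members were, per list and direction, up to 3 past that threshold with at least 100 UMIs, the 5 most similar genes of each member and the leading genes of each cluster. Some genes and 1 motif that were part of these lists are not reported here. The genes set beside *Ccl8* level in single cells were chosen after values had been seen. The members and gene lists were chosen with earlier results of these data known. Alternatives were other resolutions, no upper limits, doublets removed, fewer genes left out of the clustering, background subtracted, equal cluster weights, thinning to 2000 UMIs, the 5 highest cells of each library left out and another scaling. Promoter sequences came from RefSeq (GRCm38.p6) and gene positions from GENCODE.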

Additional observations from a re-analysis of the deposited data

Results flagged for a closer look

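Cells with more UMIs or genes than the upper limits allow are outside the values of the report, and several members differed there beyond counting error. In 91 control and 106 depleted monocyte/macrophage-like cells of that kind, *Ccl2* was 1.90-fold higher in the depleted library (1.77 to 2.03), *Ccl7* 1.20-fold (1.11 to 1.30) and *Ccr2* 1.14-fold (1.08 to 1.22). *Ccl8* was 4.76-fold higher in the depleted library (3.47 to 6.63), opposite to its direction in the filtered cells. It rests on 47 and 261 UMIs, of which 1 depleted cell held 166, and 10 control and 6 depleted cells had a *Ccl8* UMI. *Ccl12* kept the direction of the filtered cells, at 0.315-fold in the depleted library (0.220 to 0.445).

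*Ccl7* and *Ccr2* differed between the libraries in opposite directions in different clusters, in each case beyond counting error. The log2 ratio of control over depleted for *Ccl7* was 0.72 in the *Ly6c2*/*Vcan* cluster and −0.51 in the *Dcstamp*/*Slc7a2* cluster. For *Ccr2* it was 0.44 in the *Gpnmb*/*Mmp13* cluster and −0.57 in the *Retnla*/*Lyz1* cluster. With 1 library per group the difference between clusters was not tested.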

How the results depend on the processing

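Of 55 log2 ratios recomputed over the class, 43 stayed within counting error of the value given. The sign of *Ccl7*, which did not differ between the libraries beyond counting error, turned under 3 alternatives, 2 of which lay outside the interval of the value given, and the cause was not tested; the other genes kept their direction. *Ccl2* ran from −0.58 to −0.37 over 11 alternatives, *Ccl7* from −0.069 to 0.23, *Ccl8* from 1.46 to 2.26, *Ccl12* from 0.86 to 1.08 and *Ccr2* from −0.95 to −0.11. Those that moved were, without upper limits, *Ccl2* (−0.58) and *Ccl8* (1.46), and, with the T-like level subtracted, *Ccl7* (−0.069) and *Ccr2* (−0.95), where the T-like cluster of control held cells with NK markers. With the melanoma-like level subtracted instead, an alternative added after seeing the data, *Ccr2* stood at −0.37. With the clusters weighted equally the values were −0.37 for *Ccl2*, 0.23 for *Ccl7*, 2.26 for *Ccl8*, 1.08 for *Ccl12* and −0.11 for *Ccr2*. Thinned to 2000 UMIs, *Ccl2* was −0.45, *Ccl7* 0.078 and *Ccr2* −0.32.

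The share of *Ccl2* UMIs in monocyte/macrophage-like cells was 98.7% in control at resolution 0.5, 98.8% at resolution 2, 98.3% and 98.6% in control and depleted without upper limits, and 99.5% and 99.5% with the T-like level subtracted. That of *Ccl7* was 98.5% and 98.7% without upper limits and 99.9% and 99.5% with the T-like level subtracted. That of *Ccr2* was, in control, 88.0% at resolution 0.5, 88.8% at resolution 2, 87.8% with only the members left out of the clustering, 88.4% without upper limits, 87.6% without doublets and 89.5% with the T-like level subtracted. In the depleted library it was 91.6% at resolution 2, 92.1% without doublets and 91.5% with the T-like level subtracted.

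Thinning lowered the share of monocyte/macrophage-like cells with a UMI to 49.0% and 54.1% for *Ccl2*, 35.4% and 35.9% for *Ccl7*, 5.09% and 2.53% for *Ccl8*, 10.9% and 6.99% for *Ccl12* and 75.9% and 82.9% for *Ccr2*, with control first. With the threshold on the log2 ratio at 0.58, 723 genes were higher and 328 lower in control, against 1445 and 1336 at 0.32. No paired analysis was possible because each group has 1 library, and for the same reason no replicate could be left out.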
